A study of Rattus norvegicus with 36 samples.

Results

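Rat pineal glands kept in organ culture without any drug were compared with pineal glands taken from intact rats by day. The comparison used 6 of the 36 libraries of the study, chosen by their labels: the 3 Untreated in vitro libraries and the 3 in vivo Control day libraries. All were stranded RNA-seq libraries of ribo-depleted total RNA from Sprague-Dawley rats kept in a cycle of 14 h light and 10 h dark, and each was made from a pool of glands (3 glands in a tube), so a replicate is a pool and the p-values measure the spread between pools. Untreated glands came from female rats 2 to 3 months old and were cultured for 48 h and then for 6 h more with no addition, whereas Control day glands came from 40-day-old rats of both sexes that had no surgery and were killed at mid-day (ZT7). Culture, age, sex and sequencing pool all changed together, because the 9 in vitro libraries were pooled and sequenced apart from the 24 in vivo libraries, and these factors cannot be told apart in the comparison.

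Other libraries of the study are shown beside the comparison and were never in its test. SCGX day glands (3 libraries) came from rats of the Control age whose superior cervical ganglia had both been removed on postnatal day 5, so that the gland stayed in the animal without its sympathetic nerves. Sham day glands (3 libraries) came from rats with a sham operation on the same day of life. DCN day glands (3 libraries) came from rats whose ganglia were decentralized on that day, by cutting the cervical sympathetic trunks. Control night and Sham night glands (3 libraries each) were taken at midnight (ZT19) from rats otherwise handled as those of the matching day group. All these in vivo groups were of the Control age. NE and DBcAMP glands (3 libraries each) were cultured as the Untreated ones and received norepinephrine (1 µM) or dibutyryl cyclic AMP (500 µM) for the last 6 h. A single pineal day library, made with its own night library and a library of mixed tissues, belonged to a further sequencing pool.

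The pineal gland makes melatonin at night. Its pinealocytes, cells related to the photoreceptors of the retina, are driven by norepinephrine that sympathetic fibres from the superior cervical ganglia release in darkness. Norepinephrine raises cyclic AMP in the cell, which turns on a large set of night genes. A gland in culture is cut off from these fibres and from the circulation, and is the usual preparation in which norepinephrine and cyclic AMP analogues are tested.

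Read-pairs counted on genes numbered between 14304207 and 18524435 in the Untreated libraries and between 15260599 and 16734129 in the Control day libraries. Between 18263 and 18988 genes were detected in the former and between 18805 and 18981 in the latter. No replicate libraries were identical. The common coefficient of variation between pools was 8.15% in Untreated and 12.8% in Control day. Control day replicate 1 stood above the other Control day pools for a group of genes described further on, mostly through 2 of them. The files list genes by Ensembl identifier only, so genes are described here as groups, and at most 2 identifiers are named in each direction.

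In culture, 1097 genes were higher and 1071 were lower than in Control day glands, which is 7.01% and 6.84% of the 15660 genes tested (edgeR quasi-likelihood test, adjusted p-value under 0.001 and a fold change over 2). In all 2168 genes the 3 Untreated libraries did not overlap the 3 Control day libraries, a separation also seen upward in 32.6% and downward in 30.4% of all tested genes. The fold change was over 4 (strong) for 445 of the higher genes (2.84%) and 460 of the lower genes (2.94%). Without the limit on fold change, 2175 genes were higher and 2012 were lower at the same adjusted p-value. Most genes moved little: 9519 of the genes tested (60.8%) had a fitted change within 1.5-fold, and the median log2 fold change of all tested genes was -0.01, with quartiles at -0.46 and 0.42. In bulk tissue, fewer cells of a type and less RNA per cell cannot be told apart, which holds for every decrease given here.

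**Figure D1:**
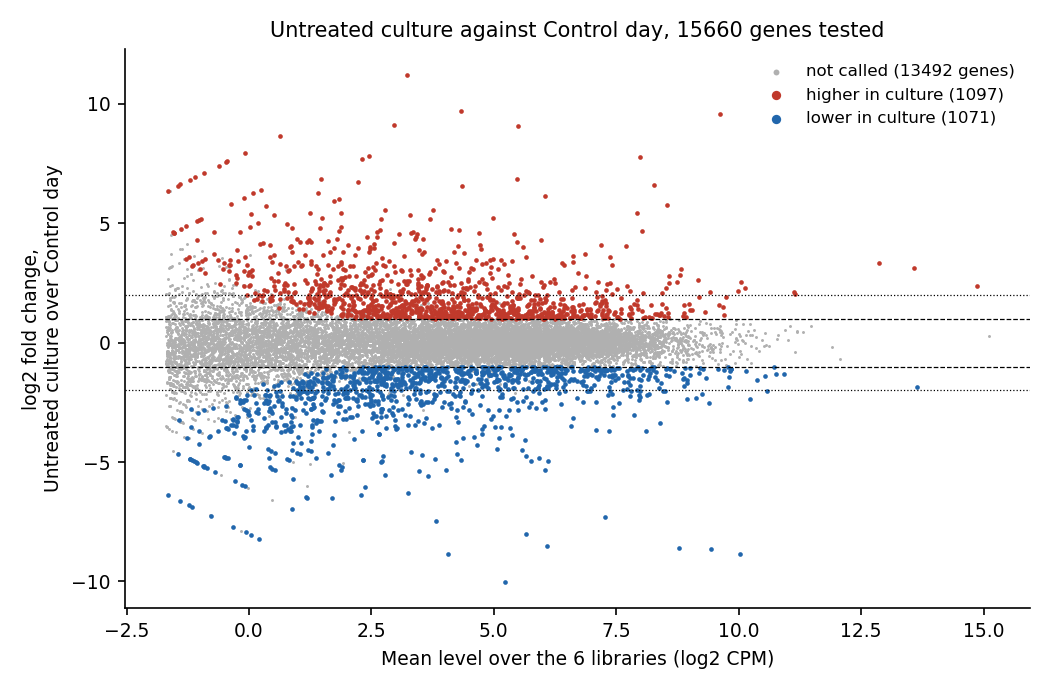
Log2 fold change of Untreated culture over Control day for each gene tested (y axis) against its mean level over the 6 libraries in log2 CPM (x axis); red points are the 1097 genes called higher, blue points the 1071 called lower, grey points the others. Dashed lines mark 2-fold and dotted lines 4-fold changes, and called genes of both directions are seen from the lowest to the highest levels.

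The distribution of sizes was nearly symmetrical. Between 2-fold and 4-fold there were 652 higher and 611 lower genes, between 4-fold and 8-fold 236 and 244, between 8-fold and 16-fold 107 and 118, and between 16-fold and 32-fold 52 and 47. Changes over 32-fold were fitted for 50 higher and 51 lower genes. Divided into quartiles of mean level, the genes of the second quartile (3.04 to 17.5 CPM, the normalized read-pair count scaled to a common library size) were called most often, 10.9% of them higher and 9.86% lower, and those of the top quartile were called higher in 5.64% and lower in 6.16%.

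The first identifier that rose is ENSRNOG00000042618, with a gene model of 1539 bases. It had 17.4, 21.5 and 17.0 CPM in the 3 Untreated libraries and no read-pair in any Control day library, so the groups did not overlap. Taking the limit of 3 read-pairs that a count of 0 allows over the group, it was at least 287-fold higher in culture than in Control day (adjusted p-value 6.93e-08, edgeR quasi-likelihood test). Its level was similarly high in the NE and DBcAMP libraries (14.9 to 21.8 CPM), whereas the SCGX day libraries held at most 1 read-pair each.

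The second identifier that rose, ENSRNOG00000016750 (gene model of 1797 bases), had 39.7, 39.8 and 41.5 CPM in the Untreated libraries. In Control day it had 0, 0 and 0.110, from 2 read-pairs in all. The ratio of the pooled counts was 941, with a 95% interval from counting error alone of 260.1 to 7774, and the adjusted p-value was 2.04e-09 in edgeR's quasi-likelihood test. NE libraries held 37.3 to 42.5 CPM, DBcAMP libraries 22.0 to 27.4, and SCGX day libraries at most 0.0603. Both identifiers were thus near or at 0 in the in vivo glands shown beside them and present in all 9 cultured libraries. Fitted against Sham day in place of Control day, their log2 fold changes were 8.05 and 8.04, in the order named.

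The first identifier that fell, ENSRNOG00000031154 (gene model of 512 bases), had 173, 23.5 and 28.9 CPM in the 3 Control day libraries and 0, 0.0697 and 0.111 in the Untreated libraries. Its fitted log2 fold change was -10.05 ± 1.34 (SE), with an adjusted p-value of 8.74e-05 in edgeR's quasi-likelihood test. Each SE here was derived from that test, as the absolute log2 fold change over the square root of its F statistic. ENSRNOG00000000167 (gene model of 936 bases) had 78.7, 9.93 and 11.1 CPM in Control day and 0.0698, 0.0697 and 0.0555 in Untreated, with a fitted log2 fold change of -8.87 ± 1.36 (SE) and an adjusted p-value of 0.000241. The ratios of the pooled counts, Control day over Untreated, were 1244 and 549.6, with 95% intervals from counting error alone of 425.3 to 6035 and 187.7 to 2668, and the fitted values depend on the prior count because each gene had 3 read-pairs in Untreated. For both, Control day replicate 1 was far above the other Control day pools, and every Untreated library was far below all of them.

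Without Control day replicate 1 the fitted log2 fold changes of ENSRNOG00000031154 and ENSRNOG00000000167 were -8.53 and -7.21, with edgeR adjusted p-values of 1.25e-08 and 5.09e-08. Leaving out any 1 Untreated library moved their adjusted p-values past the threshold, to between 0.00112 and 0.00306, while the log2 fold changes stayed at or below -8.76. In SCGX day glands ENSRNOG00000031154 had 6.54 to 9.95 CPM and ENSRNOG00000000167 had 3.08 to 4.15. These levels were below every Control day library and well above every cultured one, but were not particular to SCGX. Sham day glands had 6.30 to 12.8 and 3.82 to 7.48 CPM, in the same order. With Sham day as reference the fitted log2 fold changes were -7.15 and -6.45. In the library of mixed tissues the identifiers stood at 19.5 and 9.72 CPM.

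**Figure D2:**
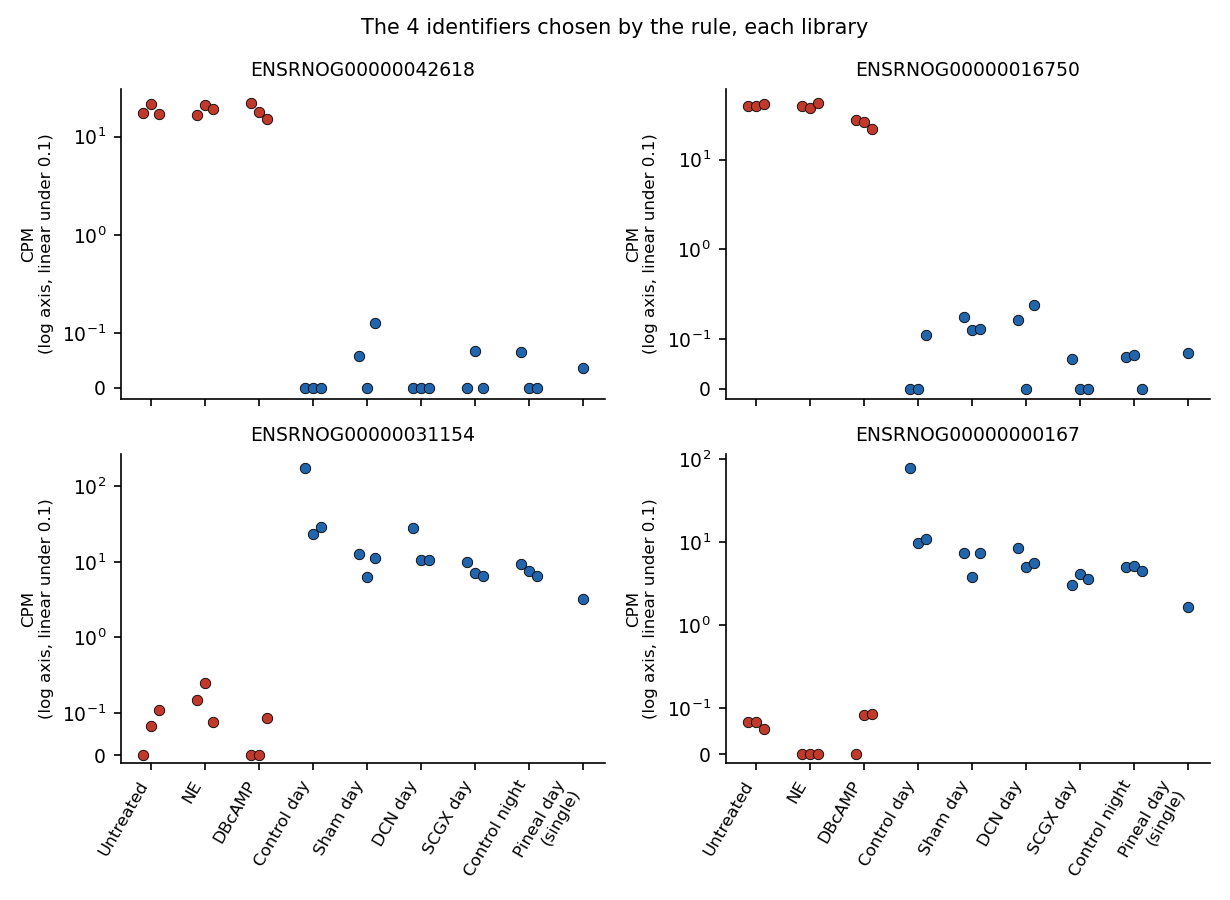
CPM (y axis, logarithmic above 0.1 and linear below) of the 4 identifiers in each library of the cultured groups (red) and of the in vivo groups (blue), 1 point for each library. The upper pair is at or near 0 in every in vivo library shown, and the lower pair is near 0 in all 9 cultured libraries, with Control day replicate 1 highest among the in vivo ones.

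Genes that were close to absent in one of the groups were counted directly. Of all genes, 27 had at most 3 read-pairs over the 3 Control day libraries and at least 10 in each Untreated library. Of these, 8 had no read-pair at all in Control day, and with Control day set at the limit of 3 read-pairs over the group the fold of the pooled counts ran from 13.3 to 627, with a median of 30.9. In SCGX day, 20 of the 27 were likewise at or under 3 read-pairs in total. All 27 were over that limit in the NE and in the DBcAMP libraries, and 20 were over it in the mixed tissues. These counts are a description alone, as the same shares over all genes were not taken. The 27 genes are rare transcripts together, at 0.0125% to 0.0152% of the read-pairs of an Untreated library.

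In the other direction, 42 genes had at most 3 read-pairs over the 3 Untreated libraries and at least 10 in each Control day library, 6 of them with none in Untreated. With Untreated set at the same limit, the fold of Control day over Untreated ran from 11.4 to 1244, with a median of 25.4. None of the 42 was at or under the limit in SCGX day glands, and 38 were above it in the mixed tissues. Because the 42 were chosen for at least 10 read-pairs in each Control day library, these counts are partly set by the choice. They are a description alone, as the same shares over all genes were not taken. The 42 genes made up 0.0379% of the read-pairs in Control day replicate 1 against 0.0101% and 0.0111% in replicates 2 and 3, and 21 of them had their highest Control day level in replicate 1. The 2 named identifiers that fell are among the 42 and made up most of the share in replicate 1. They had 2827 and 1286 read-pairs there, against 371 and 157 in replicate 2 and 523 and 201 in replicate 3. In SCGX day the 42 genes made up 0.00544% to 0.00610%, and in Sham day 0.00568% to 0.0103%. In the Untreated libraries their share was 8.12e-05% to 0.000216%, in NE 0.000277% to 0.000315% and in DBcAMP 0.00035% to 0.000547%. In NE 17 of the 42 were over the limit of 3 read-pairs in total, and in DBcAMP 17.

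The 10 most abundant genes held 13.8%, 15.4% and 14.4% of the read-pairs of the Untreated libraries and between 8.01% and 10.1% of those of the Control day libraries, with no overlap between groups (exact two-sided permutation test, p = 0.1, the smallest that 3 against 3 libraries allow). The Untreated and Control day lists of the 10 most abundant genes shared 6 genes. The single pineal day library, in vivo but from another sequencing pool, held 11.3%, above the Control day libraries and below the Untreated ones. A total of 50% of the read-pairs lay on 792 to 849 genes in Untreated and on 902 to 992 genes in Control day.

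The genes called higher took 17.0% to 18.2% of the read-pairs of the Untreated libraries against 4.14% to 4.37% in Control day, and those called lower took 3.70% to 4.26% against 13.2% to 13.9%. These shares follow from the calls and describe how much of the library the changed genes hold. The 445 strongly higher genes alone held 11.7% to 12.9% in culture, against 1.91% to 2.22% in Control day. The 460 strongly lower genes held 0.415% to 0.485%, against 2.93% to 3.80%.

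**Figure D3:**
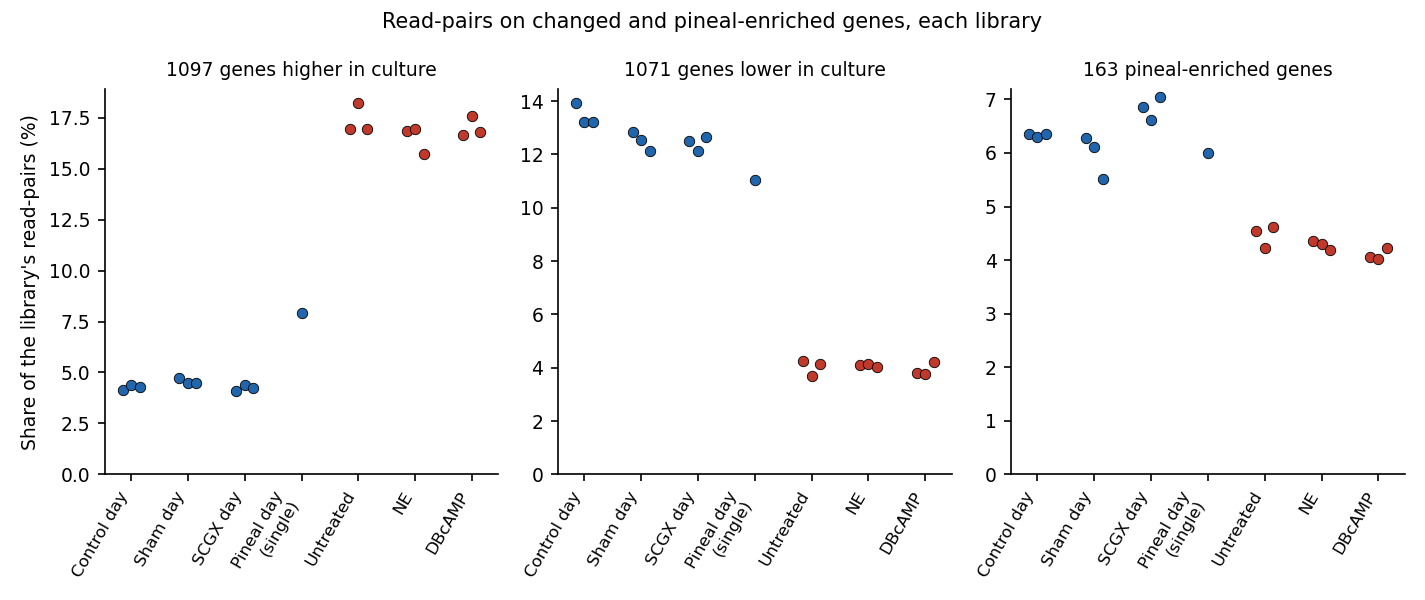
Share of a library's read-pairs in percent (y axis) on the 1097 genes called higher, the 1071 genes called lower and the 163 pineal-enriched genes, 1 point for each library, cultured groups in red and in vivo groups in blue. The 9 cultured libraries lie together in each panel, and the single pineal day library lies at 7.90% in the first, above the other in vivo libraries and below all cultured ones.

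To see which kinds of genes these were, gene lists were taken from libraries outside the comparison. A pineal-enriched list held 163 genes whose level was more than 8-fold that of the mixed tissues in both the single pineal day and the single pineal night library, with a normalized count over 30 on average of the 2 libraries of each ratio. Of the 161 tested, 66 were lower in culture, which is 41% against 6.84% of all tested genes, and 8 were higher (4.97% against 7.01%). Of the decreases 37 were strong, and of the increases 5, against 2.94% and 2.84% of all genes tested. The median log2 fold change of the list was -0.76, with quartiles at -1.87 and -0.15, against -0.01 for all genes tested.

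Over the whole list, including members not tested, pineal-enriched genes held 4.54%, 4.22% and 4.62% of the read-pairs in the 3 Untreated libraries and 6.29% to 6.36% in Control day. The groups did not overlap (exact two-sided permutation test, p = 0.1, the smallest possible). The mixed tissues held 0.257%, but the list was chosen against this same library. That low share is thus set by the choice and is given as a description. Of the 161 members tested, 87 passed in neither direction, against 13492 of all 15660 genes tested.

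In SCGX day glands the pineal-enriched list did not stand lower than in Control day: its median log2 level relative to the Control day mean was 0.06 to 0.17 in the 3 SCGX day libraries and -0.83 to -0.72 in the 3 Untreated libraries, and these values share the Control day reference. It lay at -0.86 to -0.81 with NE and at -0.90 to -0.78 with DBcAMP. The Untreated range overlapped both treated ranges. Members that varied between night and day in Sham glands (66 genes, adjusted p-value under 0.05) and the other members (97, of which 95 were tested) were lower in culture at nearly equal rates, 40.9% and 41.1%.

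**Figure D4:**
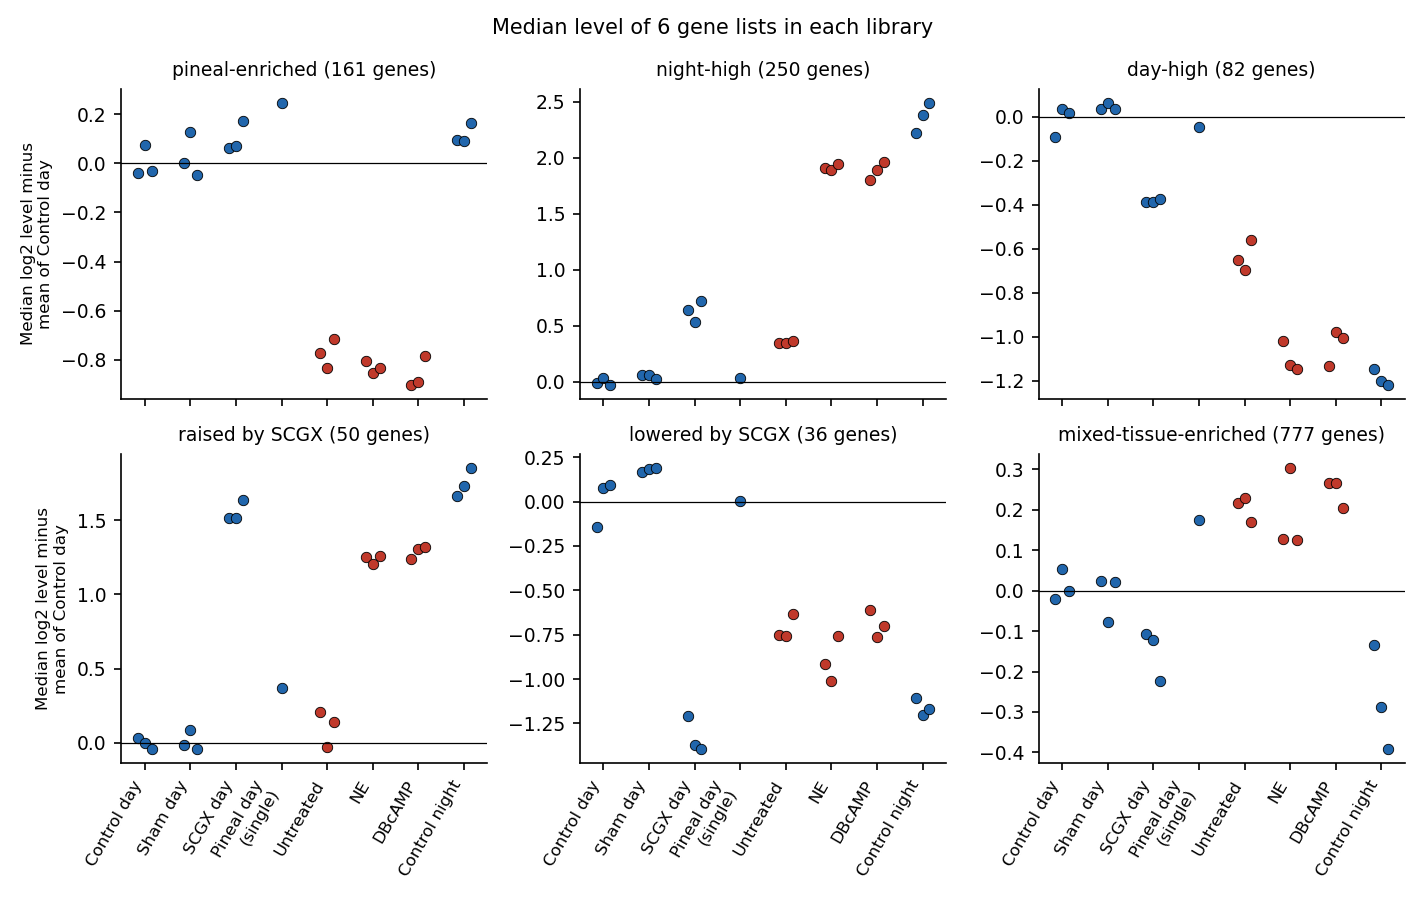
Median log2 level of 6 gene lists in each library, minus the mean of the Control day libraries (y axis, scaled for each panel), 1 point for each library, cultured groups in red and in vivo groups in blue. Pineal-enriched genes are low in the 9 cultured libraries and not in SCGX day, and night-high genes are far higher in NE, DBcAMP and Control night than in Untreated.

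Genes of the night/day rhythm were taken from the Sham glands, which share no library with the comparison. There, 252 genes were higher at night (night-high) and 82 were lower (day-high), at an adjusted p-value under 0.001 and a fold change over 2. These are 1.57% and 0.511% of the 16050 genes tested between Sham night and day. All day-high genes and 250 night-high genes were tested between culture and Control day.

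Day-high genes were lower in culture in 30 cases (36.6%, against 6.84% of all genes) and higher in 2 (2.44%, against 7.01%), with a median log2 fold change of -0.66. Relative to the Control day mean, their median log2 level was -0.65, -0.70 and -0.56 in the Untreated libraries, between -0.09 and 0.03 in the Control day libraries, and -0.39 to -0.37 in SCGX day. Control night glands reached -1.22 to -1.15 and NE glands -1.15 to -1.02. Untreated culture thus lay between the day and the night level for these genes.

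Night-high genes were higher in culture in 37 cases (14.8%, against 7.01% of all genes) and lower in 18 (7.2%, against 6.84%), with a median log2 fold change of 0.32. Their median level relative to Control day was 0.35 to 0.37 in Untreated, 0.53 to 0.73 in SCGX day and -0.02 to 0.04 within Control day itself. With NE it was 1.90 to 1.95, with DBcAMP 1.80 to 1.96, and in Control night glands 2.22 to 2.49. Most of the list, 195 of 250 genes, passed in neither direction, as did 13492 of all 15660 genes tested. Of the 250, 10 rose and 5 fell by more than 4-fold, against 2.84% and 2.94% of all genes tested. As shares of the read-pairs, night-high genes held 1.79% to 1.85% of the Untreated libraries, 1.41% to 1.48% of Control day and 4.73% to 4.98% of NE.

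**Figure D5:**
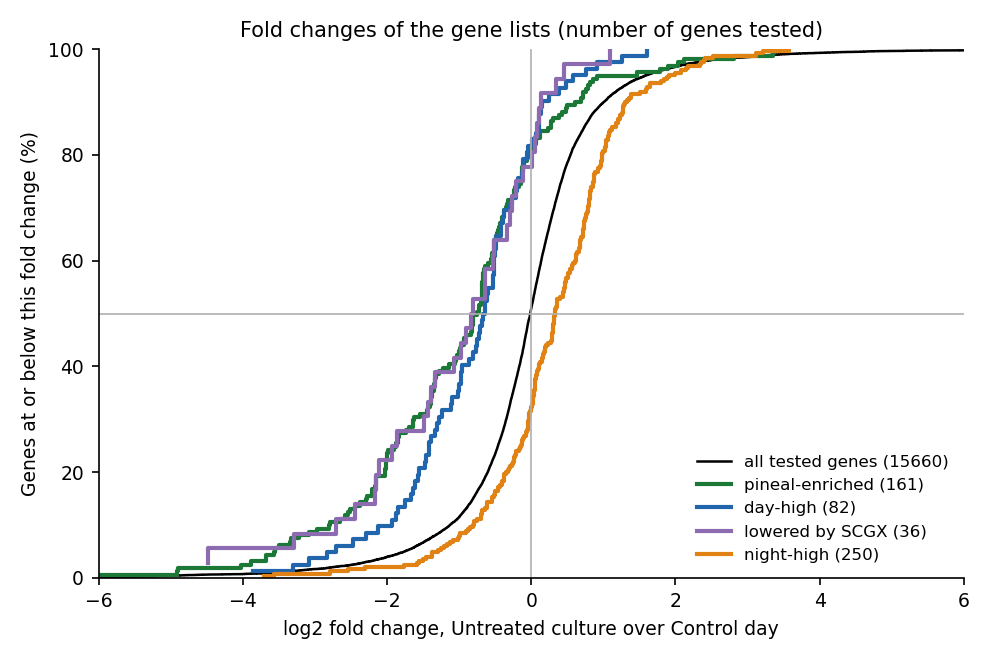
Cumulative share of genes in percent (y axis) at or below each log2 fold change of Untreated culture over Control day (x axis, shown from -6 to 6) for all tested genes and 4 gene lists. The curves of pineal-enriched genes, day-high genes and genes lowered by SCGX lie left of that of all genes, crossing 50% at -0.76, -0.66 and -0.82, and the night-high curve crosses at 0.32.

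The loss of the sympathetic nerves inside the animal was taken from SCGX day against Sham day, again with no library of the comparison. It raised 50 genes and lowered 36 (0.317% and 0.228% of 15758 genes tested, the same thresholds). The 36 genes lowered by SCGX were lower in culture in 13 cases (36.1%, against 6.84% of all genes) and higher in 1 (2.78%, against 7.01%), with a median log2 fold change of -0.82. Their median level relative to Control day was -0.76 to -0.64 in Untreated and -1.40 to -1.21 in SCGX day, but the Control day pools themselves spread from -0.14 to 0.09. A low level was not particular to SCGX day: it was -1.20 to -1.11 in Control night, -1.01 to -0.76 in NE and -0.77 to -0.61 in DBcAMP. The SCGX lists and the night/day lists were all chosen with the same Sham day libraries, so their shifts in culture are not independent.

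Of the 50 genes raised by SCGX, 3 were higher in culture (6%, against 7.01% of all genes) and 8 were lower (16%, against 6.84%). The median log2 fold change was 0.11, and it was 0.06 without Untreated replicate 1 or without Control day replicate 2, 0.07 without Untreated replicate 3, 0.19 without Untreated replicate 2, 0.16 without Control day replicate 1 and 0.02 with scaling by library size only. Their median level relative to Control day was -0.03 to 0.21 in Untreated, against 1.51 to 1.63 in SCGX day, 1.21 to 1.26 in NE and 1.66 to 1.85 in Control night. The SCGX day levels of both lists are set by the choice of their genes and are given as a description.

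The genes that changed in culture were also looked up in SCGX day against Sham day. Of the 1071 genes lower in culture 1070 were tested there, and 13 were lower with SCGX (1.21%, against 0.236% of the 15277 genes tested in both comparisons) and 8 were higher (0.748%, against 0.327%). Of the 1097 genes higher in culture 1011 were tested there, and 3 were higher (0.297%) and 1 was lower (0.0989%). The median log2 difference of SCGX day from Sham day was -0.13 over the genes lower in culture and -0.04 over the higher ones, against -0.01 over all genes. Relative to Control day, the higher genes had a median log2 level of 1.67 to 1.74 in Untreated and -0.03 to 0.06 in SCGX day, and the lower genes had -1.80 to -1.70 and -0.28 to -0.23. These values share the Control day libraries that served to choose the genes.

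Distances between whole libraries were measured as well. The median absolute log2 difference over genes was 0.14 to 0.19 between Control day pools, 0.14 to 0.16 between Untreated pools and 0.43 to 0.50 between Untreated and Control day pools. It was 0.23 to 0.29 between SCGX day and Control day, and 0.43 to 0.48 between SCGX day and Untreated. NE and Untreated pools, both cultured, differed by 0.27 to 0.30.

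The single pineal day library lay as far from Control day as the cultures did by this measure. Its median absolute log2 difference from the Control day pools was 0.44 to 0.48, although it was made from glands taken by day, and it differed from the Untreated pools by 0.58 to 0.64. On the genes called higher in culture its median log2 level was 0.54 above Control day, compared with 1.67 to 1.74 in Untreated. On the 445 strongly higher genes it was 0.65, compared with 2.65 to 2.70. On the genes called lower it was -0.09, compared with -1.80 to -1.70, and on the strongly lower genes -0.07. How much of the difference between Untreated and Control day comes with the sequencing pool was not tested, since each pool holds culture or in vivo glands only.

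Gene length moved with the comparison as well. From the shortest to the longest quartile of gene models, the median log2 fold change was -0.15, -0.06, 0.02 and 0.10, and the share of genes called higher was 4.39%, 6.45%, 7.85% and 9.32%. The share called lower was 6.74%, 6.99%, 6.27% and 7.36%. The single pineal day library showed medians of -0.19, 0.01, 0.07 and 0.10 against Control day over the same quartiles, and contrasts within the in vivo pool showed medians of -0.02, -0.01, -0.01 and -0.01 for SCGX day against Sham day and of -0.06, -0.08, -0.05 and 0.00 for Sham night against Sham day. The part of length in the calls was not tested.

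Genes that mark other tissues were examined with a list of 1930 genes more than 8-fold higher in the mixed tissues than in both single pineal libraries. Over the whole list, they held 0.463% to 0.494% of the read-pairs in Untreated and 0.276% to 0.300% in Control day, which did not overlap (exact two-sided permutation test, p = 0.1, the smallest possible), against 15.4% in the mixed tissues. SCGX day held 0.235% to 0.271% and Sham day 0.255% to 0.397%. Only 777 members passed the filter on low counts. Of these, 144 were higher (18.5%, against 7.01% of all genes) and 62 lower (7.98%, against 6.84%) in culture, and since a rare gene can pass the filter through the group where it is high, this count is a description alone. The median log2 fold change of the 777 was 0.17, with quartiles at -0.92 and 1.32. With Sham day in place of Control day it was 0.01, over 810 members tested.

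The level of the changed genes outside the comparison was described for those whose normalized count, averaged over a single pineal library and the mixed tissues, was over 30 for both pineal libraries. The median log2 ratio of the single pineal day library to the mixed tissues was -0.79 over 1018 of the 1097 higher genes and -1.59 over 380 of the 445 strongly higher ones, against 0.07 over 13873 of all tested genes. It was 0.37 over 1006 of the 1071 lower genes and -0.46 over 412 of the 460 strongly lower ones. A gene rare in the pineal gland passes this count limit only where it is high in the mixed tissues. Genes called higher in culture were also chosen for a low Control day level relative to culture. The ratios are thus a description alone. Pineal-enriched genes made up 6.16% of the genes called lower and 0.729% of those called higher, against 1.03% of all tested genes. Night-high genes were 3.62% of the higher genes tested in Sham and day-high genes 2.81% of the lower ones, against 1.63% and 0.535% over all genes.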

How the data were processed

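The authors made strand-specific libraries from total RNA without rRNA and, per the submitters' processing notes, used CASAVA 1.8.2, STAR 2.3.1y, HTSeq, R 3.0.2 and DESeq2 1.2.10 with the rn4 assembly. The paper's methods describe counting of read-pairs per Ensembl gene with QoRTs, following the union mode of HTSeq. Counts were deposited raw, as whole numbers of read-pairs. The RPKM values deposited by the authors are these counts relative to the length of the gene and the total of the library, and served only to recover gene lengths. Alignment and counting were not repeated.

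The 3 Untreated and 3 Control day libraries, grouped by their labels, entered a fit in edgeR 4.0.16 (R 4.3.3; TMM normalization, quasi-likelihood test, Benjamini-Hochberg adjustment). A gene was tested where its normalized count averaged 5 or more, out of 29516 annotated genes. Calls needed an adjusted p-value under 0.001 and a fold change over 2, and strong calls a fold change over 4. Levels are CPM, TMM-scaled over the 35 pineal libraries; log2 levels add a prior count of 2. On simulated counts for 15660 genes the test recovered 86% of 50 genes changed by 1.25 on the log2 scale, 90% at 1.5, 98% at 2 and 100% at 3, and called 2 unchanged genes. The 200 genes changed had mean counts well above the filter, so recovery of rarer genes was not measured. They were also far fewer than the genes called in the comparison. Figures and summaries used Python 3.11.15 and matplotlib 3.10.9.

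Identifiers were named by a rule: the largest changes among strong calls without overlap of libraries and with an average normalized count of 50 or more in the higher group, at most 2 in each direction. The gene table used here pairs no Ensembl identifier with a symbol (0 of 29516), so 25 lists of named genes, cell type markers among them, promoters and proteins were not analysed here. Gene lists were instead taken from libraries outside the comparison, after this was seen. The comparison and lists were chosen with earlier results of these data known. Alternatives were DESeq2 1.42.0, library size without factors, median-of-ratios factors, other filters on low counts, 11 groups in 1 model, Sham day as reference, the replicate number as a block and leaving out each library. Intervals and floors cover counting error only.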

Additional observations from a re-analysis of the deposited data

How the results depend on the processing

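Counts of calls stayed within 1.5 times of those reported under DESeq2, other size factors, no filter on low counts, 1 model for 11 groups, Sham day as reference, the replicate block and the omission of any 1 library, and in each of these settings no gene called in both was called in the opposite direction. The exception was the filter of at least 10 read-pairs in every library, which leaves out genes near 0 in a group: strong calls were then 268 higher and 236 lower, of 13112 genes tested, against 445 and 460. With 1 library left out, 919 to 1016 genes were higher, 826 to 1038 lower, 387 to 421 strongly higher and 355 to 453 strongly lower. With Sham day as reference 850 genes were higher and 765 lower, and 781 (71.2%) and 684 (63.9%) of the genes reported were among them. Scaling by library size only gave 928 higher and 1201 lower genes (43.6% higher, against 50.6%) and moved the median log2 fold change of all genes to -0.11. With the replicate block, 1024 genes were higher and 1004 lower. Replicates share only a number: the correlations of deviations between same-numbered pools were 0.04, 0.00 and -0.03. DESeq2 called 1131 higher and 1158 lower.

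The medians of the pineal-enriched, day-high, night-high and SCGX-lowered lists kept their sign in every setting. Without 1 library they ran from -0.84 to -0.71, -0.71 to -0.61, 0.31 to 0.34 and -0.91 to -0.74. The median of the 50 genes raised by SCGX stayed above 0, between 0.02 (library size only) and 0.19. The median of the mixed-tissue-enriched genes tested, 777 in the main fit, ran from 0.07 to 0.26 without 1 library. It was 0.01 over 810 genes with Sham day as reference and 0.30 over 333 genes under the strict count filter. Sham night replicate 3, which stands apart, was also left out when choosing the lists (chosen after seeing the data). Then 45 of 318 night-high genes were higher (14.2%) and 20 lower (6.29%). Of 61 day-high genes 3 were higher (4.92%) and 23 lower (37.7%). Over all genes tested 7.01% were higher and 6.84% lower. The precision rests on 3 pools per group, and for genes without a read-pair in a group only a bound can be given.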
